A study of Mus musculus with 8 samples.

Results

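Genes that copy DNA were followed in resting B cells and in germinal centre B cells of mice on 8 Affymetrix mouse arrays. The 36 genes were chosen by symbol as a list of DNA replication and S phase genes, out of 8251 genes named by the probe annotation, and where a gene had several probe sets the one with the highest mean over the 8 arrays stood for it. Of the 36, 34 had a probe set of their own and 30 of these were bright enough to test. Cdc45, Pold2, Prim2 and Dut fell under the filter on low values, Pole had no probe set, and Tyms was represented only by probe sets shared with another gene, so no value is given for either.

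All mice were QMxB6 F1 hybrids, and each array carried RNA from the pooled cells of 4 to 10 mice. The submitters describe the 2 arrays of each group as biological replicates. Resting B cells were GL7- B220+ cells of unimmunised mice. The other 3 groups were GL7+ B220+ germinal centre B cells, enriched on magnetic columns before sorting. The carrier-primed T-dependent group (TD day 4) had received 50 µg of alum-precipitated chicken gamma-globulin with heat-killed B. pertussis, got NP-CGG, the hapten NP on the same carrier, as 50 µg of soluble protein after 5 weeks, and was taken on day 4. The unprimed T-dependent group (TD day 10) received 50 µg of alum-precipitated NP on chicken gamma-globulin with heat-killed B. pertussis and was taken on day 10. For the T-independent response (TI day 4), NP-Ficoll, which carries the hapten on a polysaccharide, was given at 30 µg and cells were taken on day 4. All antigens were given into the peritoneum. Antigen, adjuvant, priming and, for TD day 10, time differ together between the germinal centre groups and cannot be told apart. Cells were taken by surface markers and not by cell cycle phase, and in such bulk RNA fewer cycling cells and less RNA per cycling cell cannot be told apart.

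Replication is prepared in G1, when the origin recognition complex and Cdc6 load the MCM helicase onto DNA, and geminin blocks further loading once S phase has begun. At the fork the polymerase alpha-primase complex lays down primers, replication factor C loads the PCNA clamp for the processive polymerases, RPA covers single-stranded DNA, and Fen1 and Lig1 join the fragments of the lagging strand. Many of these genes are transcribed under E2F factors as cells leave quiescence, and germinal centre B cells are known for very fast division.

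The promoter letters are shown because E2F sites are the textbook link among these genes. RefSeq (GRCm38.p6) gave a promoter for 31 of the 36 genes. In the 250 bases before each annotated start, either strand was searched for the letters TTTCCCGC, TTTGGCGC, TTTCGCGC and TTTGCCGC, some of which can overlap each other. They were found in 7 of the 31 genes (22.6%), against 2.16% of the 27025 genes with a promoter entry. Of the 18 such genes called higher in the germinal centre mean 4 held them (22.2%), and of the other 13 genes 3 did (23.1%). The 30-base stretches that hold them are given on the strand of the gene, 5′ to 3′, with the matched letters in capitals. In Mcm5 and in the first Mcm6 stretch a forward and a reverse match overlap.
Cdc6 (chr11:98908002-98908031, plus strand): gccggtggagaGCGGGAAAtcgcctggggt
Mcm5 (chr8:75109347-75109376, plus strand): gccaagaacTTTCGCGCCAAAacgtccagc
Mcm6 (chr1:128359795-128359824, minus strand): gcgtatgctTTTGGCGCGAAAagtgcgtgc
Mcm6 (chr1:128359734-128359763, minus strand): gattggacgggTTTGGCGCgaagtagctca
Mcm7 (chr5:138172030-138172059, minus strand): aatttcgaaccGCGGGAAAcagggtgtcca
Orc1 (chr4:108579416-108579445, plus strand): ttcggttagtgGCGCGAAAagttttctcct
Pola1 (chrX:93632275-93632304, minus strand): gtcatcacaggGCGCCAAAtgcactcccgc
Rfc3 (chr5:151651209-151651238, minus strand): ccggaagtgacgtcgcacgcTTTCGCGCtc

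The CCAAT box, which NF-Y binds in many cell cycle promoters, was present on either strand in 20 of the 31 genes (64.5%) against 37.5% of all genes. The letters GGGCGG of the GC box were present in 21 (67.7%) against 35.4%. These matches are a description of letters and not of bound sites. The 120-base windows of Mcm3 and of both ribonucleotide reductase subunits are printed because these genes lack the E2F letters above yet carry CCAAT, shown in capitals. The Mcm3 window holds 3 copies, 1 of them on the reverse strand and so read as ATTGG, and the Rrm1 and Rrm2 windows hold 2 and 1.
Mcm3 (chr1:20820313-20820432, minus strand): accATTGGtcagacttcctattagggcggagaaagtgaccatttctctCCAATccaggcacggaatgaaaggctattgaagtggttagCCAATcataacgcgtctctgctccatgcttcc
Rrm1 (chr7:102441575-102441694, plus strand): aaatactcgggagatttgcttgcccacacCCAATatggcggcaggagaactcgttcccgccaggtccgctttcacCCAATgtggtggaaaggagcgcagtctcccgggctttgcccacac
Rrm2 (chr12:24708134-24708253, plus strand): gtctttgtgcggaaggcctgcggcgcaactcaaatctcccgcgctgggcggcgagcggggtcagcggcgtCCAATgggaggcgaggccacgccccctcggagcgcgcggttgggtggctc

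The arrays had medians between 77 and 89 intensity units. Values are linear intensities as deposited, and tests used log2 after setting values under 81, the median of all values, to 81. Folds are those of the mean log2 values, and a fold whose dimmer side has an array under the floor is given as "at least". Bcl6, the germinal centre transcription factor, was 2.72-fold higher in the germinal centre mean than in resting cells (adjusted p = 0.0021, limma). Mki67, a marker of cycling cells, was at least 5.02-fold higher on its brighter probe set (adjusted p = 0.0046) and 2.57-fold higher on the other (adjusted p = 0.026). Of the 5 germinal centre markers listed, Bcl6 and Mki67 among them, 4 had a probe set, and Fas was under the floor on every array. The 3 tested were called higher in the germinal centre mean. Gcsam read 154 and 101 in resting, 753 and 661 in TD day 4, 768 and 501 in TD day 10, but 156 and 131 in TI day 4. Of the 3, 1 was called lower in TI day 4 than in TD day 4 and 1 than in TD day 10. Of 8 B cell markers 7 had a probe set and all 7 were tested, with a summed intensity of 28049 to 31973 in resting and 20100 to 23960 in germinal centre arrays. In the germinal centre mean 4 of the 7 were called lower. Red cell precursor markers, of which 8 of 10 had a probe set, summed to 23976 to 26703 in resting and 2101 to 3903 in germinal centre arrays, and 4 of the 7 tested fell, with Epor under the floor on every array. Hba-a1 (15550 and 13751) and Hbb-b2 (8744 and 7985) gave most of the resting sum. Slc4a1 went the other way in TI day 4 (1700 and 2317, against 724 and 707 in resting), as did Gata1 (140 and 221, against -18 and 25). Of the 7, 1 was called higher in TI day 4 than in TD day 4 and 1 than in TD day 10. Neutrophil markers also summed higher in resting (6282 to 6548 against 1600 to 2690), and 3 of the 6 tested fell. Macrophage markers summed to 3065 to 3264 in resting, 1373 to 2223 in T-dependent arrays and 4959 to 5923 in TI day 4, and 3 of the 8 tested fell. NK cell markers, of which 3 of 5 had a probe set, summed to 813 to 877 in resting and 388 to 576 in germinal centre arrays. Of the 2 tested, 1 fell. T cell markers, of which 7 of 8 had a probe set, summed to 493 to 506 in resting and 556 to 906 in germinal centre arrays. Of these Cd3e, Cd3d, Cd8a and Thy1 were under the floor on every array, Cd4 was above it on every array (292 and 339 in resting, 366 to 710 in germinal centre arrays), and none of the 3 tested was called. The part that such other cells have in the differences from resting cells was not tested.

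Against resting B cells, most of the replication genes tested were higher in germinal centre B cells. Of the 30 genes tested, 21 rose in the mean of the 3 germinal centre groups and 0 fell at an adjusted p under 0.05, where 7.73% of all 7253 probe sets tested rose and 5.5% fell. At an unadjusted p under 0.05 the counts were 24 higher and 0 lower, against 13.7% and 12.1% of all probe sets. The median log2 difference of the 30 was 1.57, against 0.00 over all probe sets tested. In 22 of the 30 every germinal centre array lay above both resting arrays, against 10.9% of all probe sets. Measured folds of the genes that rose ran from 2.25 for Rfc2 to 12.1 for Pclaf, and in 6 of the 21 at least 1 resting array was under the floor. Genes dim in resting cells passed the filter through their germinal centre values, so these counts describe the genes bright enough to test. When each array was left out in turn, 19 of the 21 stayed called, and Rfc3 and Lig1 did not.

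**Figure D1:**
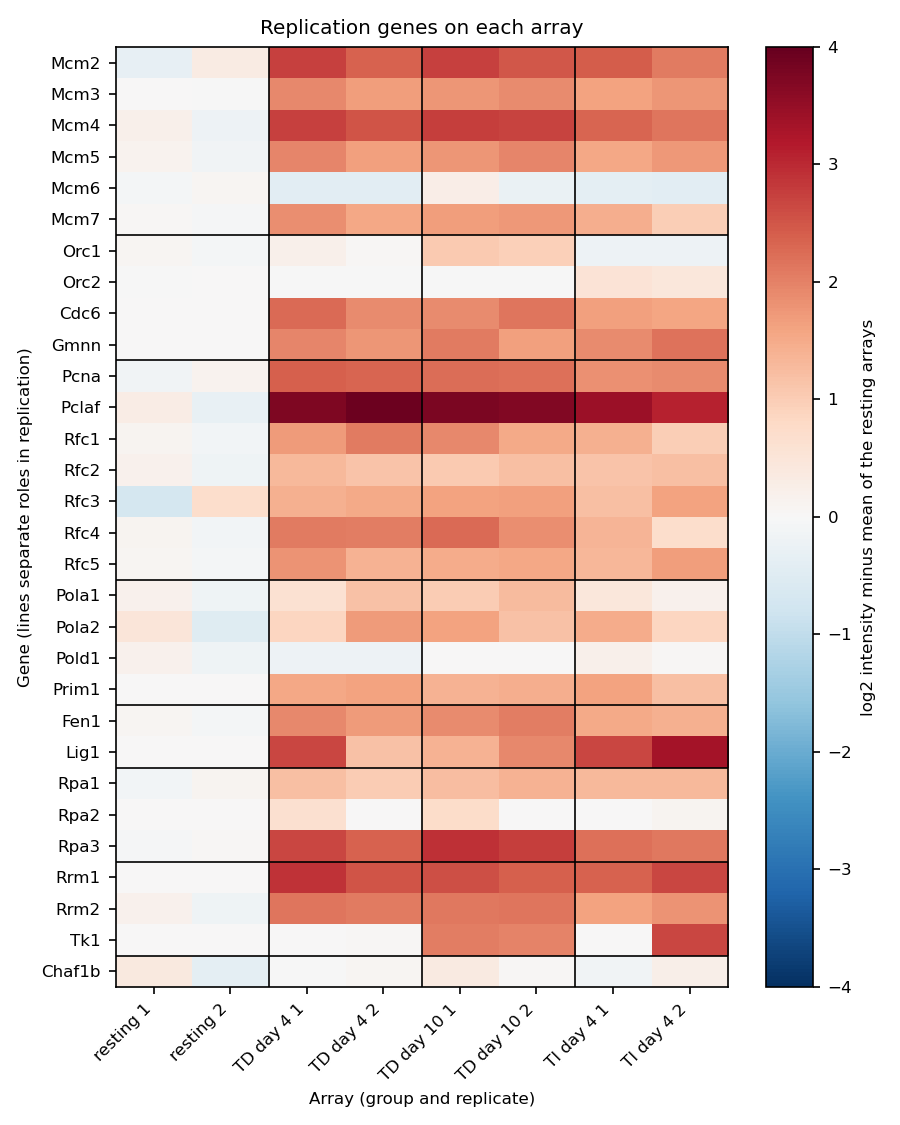
Each tested replication gene (rows, ordered by role) on each of the 8 arrays (columns), as log2 floored intensity minus that gene's mean over the 2 resting arrays, with red above and blue below it. The 6 germinal centre columns are red for the genes that rose, while the rows of Pold1 and Chaf1b stay pale.

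**Figure D2:**
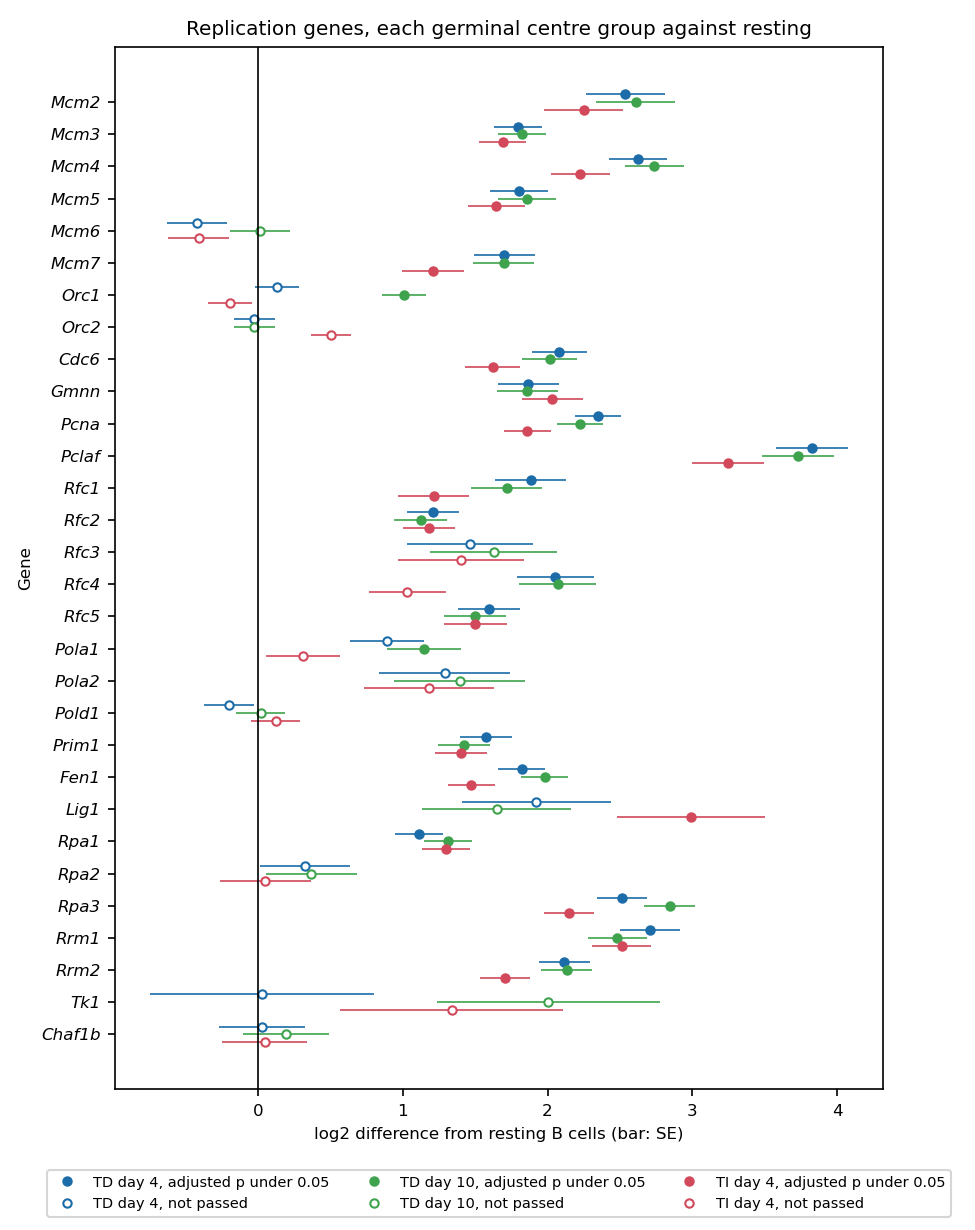
Log2 difference of each germinal centre group from resting cells for the tested genes, with filled points for adjusted p under 0.05 and bars for the standard error. Pclaf lies farthest to the right at 3.25 to 3.83, and no gene is called below 0.

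The MCM helicase, the ring of Mcm2 to Mcm7 that unwinds DNA at the fork, rose in 5 of its 6 subunits. Mcm2 read 112 and 173 in resting, 917 and 713 in TD day 4, 920 and 783 in TD day 10, and 744 and 588 in TI day 4. Every germinal centre array lay far above both resting arrays, and the mean was 5.52-fold higher (log2 difference 2.46 ± 0.22 SE, adjusted p = 0.0017). Mcm4 read 195 and 144 in resting, 1109 and 962 in TD day 4, 1145 and 1091 in TD day 10, and 836 and 736 in TI day 4, and was 5.77-fold higher (adjusted p = 0.00064). For Mcm4 both TI day 4 arrays lay below the other 4 germinal centre arrays, while for Mcm2 they overlapped TD day 4.

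Mcm3 rose from 632 and 610 in resting to between 1913 and 2348 in germinal centre arrays, a 3.41-fold difference (adjusted p = 0.00099), and its second probe set gave 2.04 ± 0.14 on the log2 scale. Mcm5 rose from 1373 and 1129 to between 3650 and 4867, also 3.41-fold (adjusted p = 0.0018). Its second probe set, with 1290 and 1797 in resting and 1854 to 2300 in germinal centre arrays, gave 0.51 ± 0.17 and was not called (adjusted p = 0.12), so the probe sets of Mcm5 disagree in size. Mcm7 rose from 293 and 273 to between 554 and 1016 (2.90-fold, adjusted p = 0.0035).

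Mcm6 was the subunit that did not rise. Its single probe set read 103 and 114 in resting, 21 and 73 in TD day 4, 131 and 91 in TD day 10, and 82 and 0 in TI day 4. Both TD day 4 arrays and both TI day 4 arrays lay below resting, with 3 of these 4 under the floor, while TD day 10 overlapped resting. The log2 difference of the germinal centre mean was at most -0.27 ± 0.17 and was not called (adjusted p = 0.39), nor was any of the 3 groups alone. The probe set was dim on every array, at 0 to 131.

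Among the genes that license and fire origins, Cdc6 and Gmnn rose and the origin recognition subunits did not move together. Cdc6, the loader of the helicase, read 43 and 79 in resting, 391 and 301 in TD day 4, 300 and 357 in TD day 10, and 255 and 243 in TI day 4. Both resting arrays were under the floor and all 6 germinal centre arrays above it, and the difference was at least 3.75-fold (adjusted p = 0.0012). Gmnn, which encodes the licensing inhibitor geminin, read 5 and -8 in resting and 252 to 363 in germinal centre arrays, at least 3.78-fold higher (adjusted p = 0.0016).

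Orc1, the largest origin recognition subunit, read 174 and 156 in resting, 189 and 172 in TD day 4, 341 and 321 in TD day 10, and 144 and 144 in TI day 4. The TD day 10 arrays stood above all others, and the remaining 6 lay between 144 and 189. In the germinal centre mean Orc1 was not called (0.31 ± 0.12, adjusted p = 0.18), while in TD day 10 alone it was 1.01 ± 0.15 above resting (adjusted p = 0.011). Without the first or the second TD day 10 array that adjusted p was 0.076 or 0.060. Orc2, another subunit of the complex, stayed near the floor, with -22 to 84 in all arrays but those of TI day 4, which read 120 and 114. A second Orc2 probe set was under the floor on every array, at 6 to 38, with 19 and 14 in TI day 4.

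The sliding clamp and its loader rose in all 7 genes. Pclaf, the PCNA-associated factor, gave the largest difference among the genes tested here. It read 159 and 104 in resting, 1711 and 1944 in TD day 4, 1756 and 1661 in TD day 10, and 1367 and 1091 in TI day 4, which is 12.1-fold (log2 difference 3.60 ± 0.20, adjusted p = 0.00046). The lowest germinal centre array was far above both resting arrays. Its other probe sets were dim, at -12 to 194, and were not called.

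Pcna itself read 664 and 800 in resting, 3789 and 3631 in TD day 4, 3450 and 3358 in TD day 10, and 2611 and 2685 in TI day 4. Replicates of each group lay close together, and the 3 germinal centre groups did not overlap one another. The germinal centre mean was 4.42-fold above resting (2.14 ± 0.13, adjusted p = 0.00048).

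Of the clamp loader subunits, Rfc1, the large subunit, read 105 and 92 in resting and 195 to 412 in germinal centre arrays (3.04-fold, adjusted p = 0.0051). A second Rfc1 probe set was under the floor on every array, at -126 to -20. Rfc2 read 514 and 405 in resting and 947 to 1118 in germinal centre arrays (2.25-fold, adjusted p = 0.0051). Rfc5 read 177 and 157 against 419 to 585 (2.89-fold, adjusted p = 0.0037). A second probe set of Rfc5, with 190 and 182 against 156 to 283, gave 0.27 ± 0.24 and was not called. The probe sets of Rfc5 therefore disagree.

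Rfc4 read 95 and 0 in resting, 369 and 360 in TD day 4, 422 and 321 in TD day 10, and 225 and 143 in TI day 4, at least 3.29-fold higher in the germinal centre mean (adjusted p = 0.0051). Rfc3 read 81 and 214 in resting and 302 to 414 in germinal centre arrays, 2.83-fold higher between mean log2 values (adjusted p = 0.043). The resting arrays of Rfc3 were far apart: without the first the log2 difference was 0.80 (adjusted p = 0.074), and without any single germinal centre array the adjusted p was 0.076 to 0.10.

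The polymerase genes that could be tested were not called in the germinal centre mean. Of 7 polymerase and primase genes 4 were tested, and 3 of these were higher at an unadjusted p under 0.05, against 13.7% of all probe sets. Of the 4, 1 was called. This was Prim1, the catalytic primase subunit, with 0 and 16 in resting and 187 to 245 in germinal centre arrays, at least 2.76-fold higher (adjusted p = 0.0023). Pola1, the catalytic subunit of polymerase alpha, read 109 and 86 in resting, 148 and 217 in TD day 4, 197 and 234 in TD day 10, and 133 and 108 in TI day 4. The TI day 4 arrays overlapped resting, and the log2 difference of the mean was 0.78 ± 0.21 (adjusted p = 0.061).

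Pola2, the second subunit of polymerase alpha, read 161 and -22 in resting and 208 to 374 in germinal centre arrays, with a log2 difference of at least 1.29 ± 0.37 that was not called (adjusted p = 0.075). A second Pola2 probe set was above the floor on 1 array only, a TI day 4 array at 205, and was not tested. Pold1, the catalytic subunit of polymerase delta, read 682 and 544 in resting, 533 and 528 in TD day 4, 616 and 618 in TD day 10, and 694 and 633 in TI day 4. Resting and germinal centre arrays overlapped, and the log2 difference was -0.02 with a 95% interval of -0.36 to 0.32. A second, dimmer probe set of Pold1 gave 0.52 ± 0.27 and was not called.

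Both genes that finish the lagging strand rose. Fen1, the flap endonuclease, read 179 and 164 in resting, 655 and 560 in TD day 4, 642 and 711 in TD day 10, and 488 and 464 in TI day 4 (3.38-fold, adjusted p = 0.00099). Lig1, the ligase that seals the fragments, read -44 and -35 in resting, 521 and 181 in TD day 4, 212 and 304 in TD day 10, and 513 and 808 in TI day 4, at least 4.55-fold higher (adjusted p = 0.021). A second Lig1 probe set was under the floor on every array, at -48 to 52. Fen1 replicates lay close together, while Lig1 replicates were spread wide, and the Lig1 call was lost without the first or second resting array (adjusted p = 0.091 and 0.098) and without the second TD day 10 array (adjusted p = 0.053).

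Of the RPA heterotrimer, which coats single-stranded DNA, the large and the small subunit rose. Rpa1 read 395 and 465 in resting and 872 to 1116 in germinal centre arrays (2.37-fold, adjusted p = 0.0031). Rpa3 read 82 and 88 in resting, 541 and 435 in TD day 4, 638 and 582 in TD day 10, and 388 and 366 in TI day 4 (5.66-fold, adjusted p = 0.00046). Rpa2, the middle subunit, was dim at 5 to 135 on all arrays, with overlapping groups and a log2 difference of 0.25 ± 0.26 (adjusted p = 0.62).

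For nucleotide supply, both subunits of ribonucleotide reductase, which makes deoxynucleotides, rose. Rrm1 read -110 and 11 in resting and 415 to 605 in germinal centre arrays, at least 5.92-fold higher (adjusted p = 0.00064). Rrm2 read 180 and 144 in resting, 717 and 680 in TD day 4, 700 and 712 in TD day 10, and 495 and 558 in TI day 4 (3.96-fold, adjusted p = 0.00086). On these probe sets both germinal centre ranges stood clear of resting. A second Rrm1 probe set was under the floor on every array, at -60 to 77.

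Tk1, the thymidine salvage kinase, read -567 and -356 in resting, 41 and 84 in TD day 4, 333 and 318 in TD day 10, and 79 and 517 in TI day 4. All 6 germinal centre values were higher than both resting values before flooring, but resting, TD day 4 and 1 TI day 4 array lay under or close to the floor. The floored log2 difference was 1.12 ± 0.63 and not called (adjusted p = 0.34). Without the first or the second TI day 4 array it was called, at 1.57 (adjusted p = 0.0053) and 0.68 (adjusted p = 0.0385). A second Tk1 probe set was under the floor on every array, at -127 to -50. Dut, which clears dUTP, was under the filter at 55 to 107.

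Chaf1b, a subunit of the chromatin assembly factor that follows the fork, read 675 and 399 in resting and 467 to 661 in germinal centre arrays. The resting arrays lay on either side of all 6 germinal centre arrays, and the log2 difference was 0.09, with a 95% interval of -0.49 to 0.67.

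**Figure D3:**
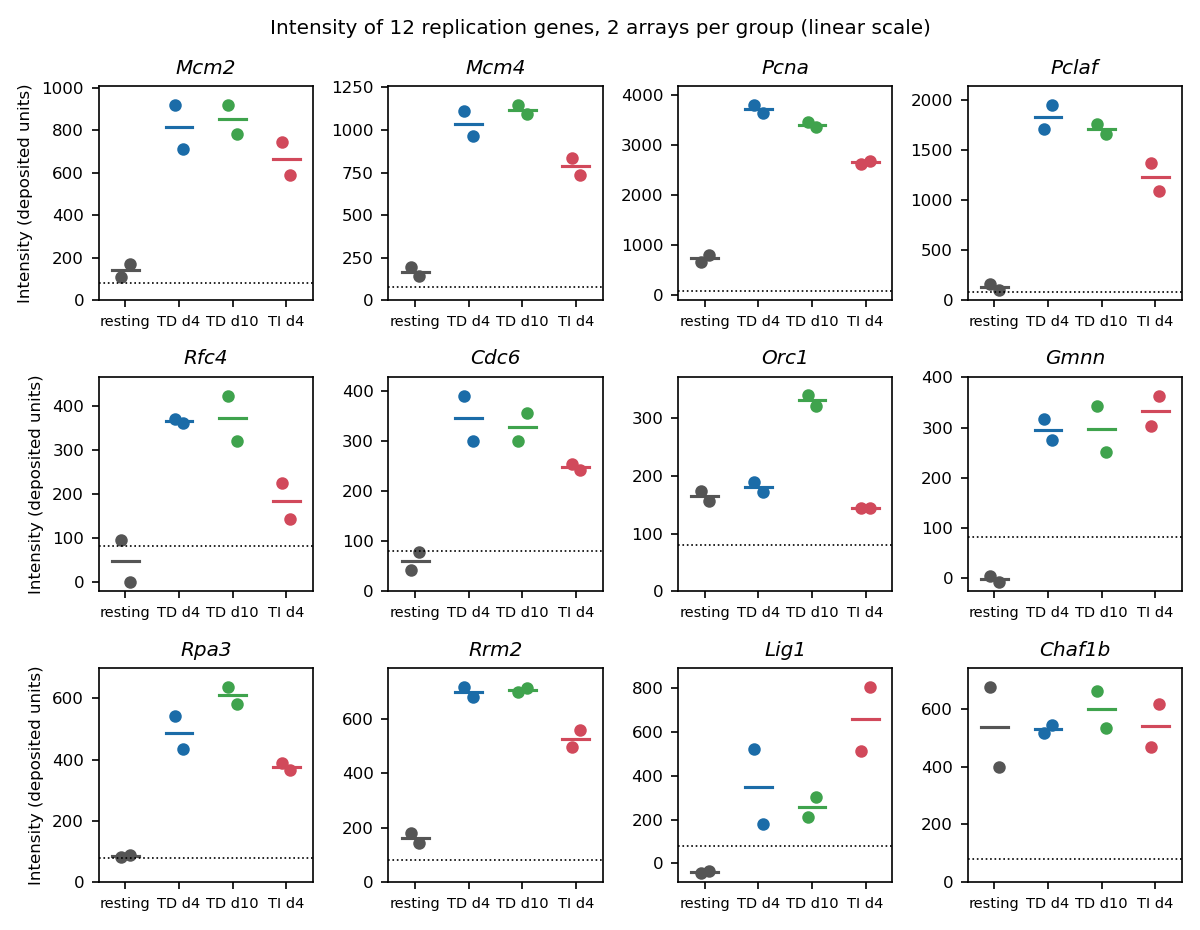
Deposited intensity on each array for the replication genes shown, 1 panel per gene with its own linear axis, points for arrays, a bar for the mean of the 2 arrays of a group and a dotted line for the floor of 81. In the Pcna panel the resting arrays sit at 664 and 800 and the germinal centre arrays between 2611 and 3789, and in the Orc1 panel the TD day 10 arrays alone stand out, at 341 and 321.

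Each germinal centre response was next set against resting cells by itself. The 3 comparisons share the same resting arrays. In TD day 4, 19 genes rose and 0 fell, where 5.83% of all probe sets rose and 3.58% fell. In TD day 10, 21 rose and 0 fell, against 6.45% and 4.44% of all probe sets, which are 468 and 322 probe sets. With the arrays set to a common median, 364 of all probe sets rose and 392 fell in that comparison, and still 21 of the replication genes rose. In TI day 4, 19 rose and 0 fell, against 5.42% and 3.98%. At an unadjusted p under 0.05 the counts were 23, 25 and 23 higher and 0 lower in each, where 12.3%, 13.3% and 12.1% of all probe sets were higher.

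The same 18 genes rose in all 3 responses: Mcm2, Mcm3, Mcm4, Mcm5, Mcm7, Cdc6, Gmnn, Pcna, Pclaf, Rfc1, Rfc2, Rfc5, Prim1, Fen1, Rpa1, Rpa3, Rrm1 and Rrm2. The share of all probe sets that rose in all 3 was not counted, and cannot exceed the 5.42% of TI day 4. The shared resting arrays also tie the 3 sets of calls together. Rfc4 was called in TD day 4 and TD day 10 (at least 2.05 and 2.07 on the log2 scale) and gave at least 1.03 ± 0.27 in TI day 4 (adjusted p = 0.069). Lig1 was called in TI day 4 alone, at least 2.99 ± 0.51 (adjusted p = 0.019), with at least 1.92 in TD day 4 and 1.65 in TD day 10. Orc1 and Pola1 were called in TD day 10 alone, Pola1 at 1.15 ± 0.26 (adjusted p = 0.040). These patterns of calls are not tests of a difference between the responses.

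When each of the 8 arrays was left out in turn, 13 of 19 calls in TD day 4, 14 of 21 in TD day 10 and 13 of 19 in TI day 4 held every time. Those that did not were Mcm7, Rfc1, Rfc2, Rfc4, Rfc5 and Rpa1 in TD day 4, Orc1, Rfc1, Rfc2, Rfc4, Rfc5, Pola1 and Rpa1 in TD day 10, and Mcm7, Rfc1, Rfc2, Rfc5, Lig1 and Rpa1 in TI day 4. Their adjusted p then ran from 0.056 to 0.087, from 0.051 to 0.18 and from 0.051 to 0.15. The Rfc1 call in TI day 4 (1.21 ± 0.25, adjusted p = 0.032) was lost without any single array, and the Pola1 call in TD day 10 without any resting, TD day 10 or TI day 4 array.

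Other genes of DNA replication and S phase, outside the 36, were counted from a list of 70. Of these 50 had a probe set of their own and 42 were tested. In the germinal centre mean 16 of the 42 rose and 0 fell, with 10 higher in TD day 4, 11 in TD day 10, 12 in TI day 4 and 0 lower in each. The shares of all probe sets that rose were 7.73%, 5.83%, 6.45% and 5.42%, in the same order. With an unadjusted p under 0.05, 23 were higher and 1 lower in the mean, against 13.7% and 12.1% of all probe sets. By single response 22, 23 and 21 were higher, against 12.3%, 13.3% and 12.1% of all probe sets. Of the single responses, only TI day 4 had a lower gene (1, against 10.8%). Uhrf1, which recruits the maintenance methyltransferase to new DNA, read 116 and 122 in resting and 501 to 946 in germinal centre arrays (6.16-fold, adjusted p = 0.00049). Dnmt1, that methyltransferase, read -377 and -175 in resting, 461 and 323 in TD day 4, 366 and 354 in TD day 10, and 754 and 867 in TI day 4, at least 5.96-fold higher (adjusted p = 0.00068). Its TI day 4 arrays were the highest of all 8.

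Dck, a deoxynucleoside salvage kinase, rose 5.78-fold, from 258 and 277 to between 895 and 1896 (adjusted p = 0.0016). Slbp, which binds histone mRNA in S phase, rose 3.88-fold, from 226 and 259 to between 702 and 1146 (adjusted p = 0.0027). H2az1, a histone variant gene, rose 3.76-fold, from 1125 and 1411 to between 4074 and 5293 (adjusted p = 0.00089). Orc6, another origin recognition subunit, rose at least 3.66-fold, from 13 and 21 to between 216 and 361 (adjusted p = 0.000975). These 6 are the genes of the list with the smallest p in that comparison.

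Between the germinal centre responses, the differences in replication genes were far smaller than those from resting cells. TI day 4 against TD day 4 sets a T-independent response against a carrier-primed T-dependent one, both taken on day 4. Antigen, dose, adjuvant and priming differ between them along with T cell help. In limma 0 of the 30 genes were called in either direction, where 0.731% of all probe sets were called higher and 0.717% lower in TI day 4. At an unadjusted p under 0.05, Orc2 was higher and Cdc6, Pcna, Rfc1 and Rfc4 were lower in TI day 4, which is 3.33% and 13.3% of the genes against 6.65% and 7.75% of all probe sets. The median log2 difference of the 30 genes was -0.18, against -0.01 over all probe sets. Both TI day 4 arrays lay below both TD day 4 arrays for 12 genes (Mcm4, Mcm7, Orc1, Cdc6, Pcna, Pclaf, Rfc1, Rfc4, Pola1, Fen1, Rpa3 and Rrm2), against 23.7% of all probe sets, and above them for Orc2, Pold1 and Rpa1, against 21.3%.

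The largest measured difference among these 15 genes was in Rfc4, -1.02 ± 0.27 with a 95% interval of -1.67 to -0.38 (adjusted p = 0.15). Outside the 15, Lig1, whose arrays overlapped, went the other way at 1.07 ± 0.51, with an interval of -0.18 to 2.31 (adjusted p = 0.45). Pcna was -0.49 ± 0.16, with an interval of -0.87 to -0.10 (adjusted p = 0.24), and Pclaf -0.58, with an interval of -1.18 to 0.02. For many other genes the interval held 0, as for Mcm3 (-0.51 to 0.30), Rrm1 (-0.69 to 0.30) and Gmnn (-0.34 to 0.68). None of these intervals shows that the responses are alike. Without the first TI day 4 array Tk1 was called higher in TI day 4 (2.65, adjusted p = 0.047), which rests on the array that read 517.

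The ratio of the 3′ to the 5′ Gapdh control probe sets, a sign of RNA quality, moved with these groups: it was 0.981 and 0.954 in TD day 4, 0.836 and 0.896 in TD day 10, and 1.24 and 1.68 in TI day 4, with 0.867 and 1.59 in resting. Mki67 gave -1.06 ± 0.35 in TI day 4 against TD day 4 on its brighter probe set (adjusted p = 0.24) and -0.11 ± 0.34 on the other. Plasma cell markers, of which all 5 had a probe set, summed to 9726 to 12923 in TI day 4, 3246 to 3932 in TD day 4 and 2581 to 3288 in TD day 10. Jchain (7347 and 9356) and Xbp1 (2072 and 2951) gave most of the TI day 4 sum. Sdc1 and Prdm1 fell under the filter, and Irf4 read 125 and 516 in TI day 4 against 292 and 511 in resting. Of the 3 tested, 1 was called higher in TI day 4 than in TD day 4 and 2 than in TD day 10. All 9 macrophage markers had a probe set, and Adgre1 was under the floor throughout. The macrophage markers summed to 4959 to 5923 in TI day 4, 1969 to 2223 in TD day 4 and 1373 to 1942 in TD day 10. Apoe gave most of that sum in TI day 4 (4213 and 3371, against 1305 and 1140 in TD day 4), C1qc and Lyz2 were under the floor there, C1qa on 1 of its 2 arrays, and 0 of the 8 tested were called in TI day 4 against TD day 4. Against TD day 10, 1 of the 8 was called higher. Early marrow B cell precursor markers summed to 2995 to 3779 in TI day 4, 1997 to 2090 in TD day 4 and 1198 to 1833 in TD day 10. Of the 4 tested, 1 was called higher in TI day 4 than in TD day 4 and 1 than in TD day 10. The part of RNA quality, of cycling cells or of these other transcripts in the lower TI values was not tested. With the Gapdh ratio as a covariate, 0 of the 30 genes were called in either TI comparison. That fit cannot show the part of RNA quality, because both TI day 4 ratios lay above every T-dependent ratio. Against TD day 4 there were also 0 calls without the covariate.

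TI day 4 against TD day 10 gave 1 call among the 30 genes, where 1.2% of all probe sets were called higher and 1.2% lower, 87 in each direction (118 and 77 with a common median). It was Orc1, with 144 and 144 in TI day 4 against 341 and 321 in TD day 10, 2.30-fold lower in TI day 4 (-1.20 ± 0.15, 95% interval -1.57 to -0.83, adjusted p = 0.018). The call was lost without either TD day 4 array (adjusted p = 0.052 for each), without the first or second TD day 10 array (0.11 and 0.097), without the first or second TI day 4 array (0.088 and 0.12), and with the Gapdh ratio as a covariate (-1.10, adjusted p = 0.19), while its size stayed between -1.24 and -1.06 under all alternatives tried. At an unadjusted p under 0.05, 7 genes were lower (23.3%, against 9.47% of all probe sets) and 2 higher (6.67%, against 7.73%), the latter Orc2 and Lig1.

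Both TI day 4 arrays lay below both TD day 10 arrays for 15 of the 30 genes, against 29.3% of all probe sets, and above them for Orc2, Pold1 and Lig1, against 19.6%. With the arrays set to a common median, 11 genes lay below, against 20.3%, and 5 above, against 27.8%. Values as deposited gave the differences that follow. The median log2 difference was -0.34, against -0.08 over all probe sets. Rfc4 gave -1.04 (interval -1.68 to -0.39, adjusted p = 0.12), Rpa3 -0.69 (-1.11 to -0.27, adjusted p = 0.11) and Mcm4 -0.51 (adjusted p = 0.27). Lig1 went the other way, at 1.34 (0.10 to 2.59, adjusted p = 0.25). Without the second TI day 4 array Tk1 was called lower in TI day 4, at -2.01 (adjusted p = 0.049).

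TD day 10 against TD day 4 sets an unprimed response against a primed one at a later day. In limma 0 of the 30 genes were called, as were 0% of all probe sets higher and 0% lower, and at an unadjusted p under 0.05 Orc1 and Tk1 were higher in TD day 10 (6.67% of the genes, against 3.16% of all probe sets). Orc1 gave 0.88 ± 0.15 (interval 0.51 to 1.25, adjusted p = 0.35) and Tk1 at least 1.98 (adjusted p = 0.92). Both TD day 10 arrays lay above both TD day 4 arrays for Mcm6, Orc1, Rfc3, Pold1, Rpa1, Rpa3 and Tk1, against 21.4% of all probe sets, and below them for Pcna and Prim1, against 14.8%. The median log2 difference of the 30 was 0.04, against 0.02. For the helicase the interval was -0.60 to 0.74 for Mcm2 and -0.37 to 0.43 for Mcm3, and such intervals do not show that the groups are alike.

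**Figure D4:**
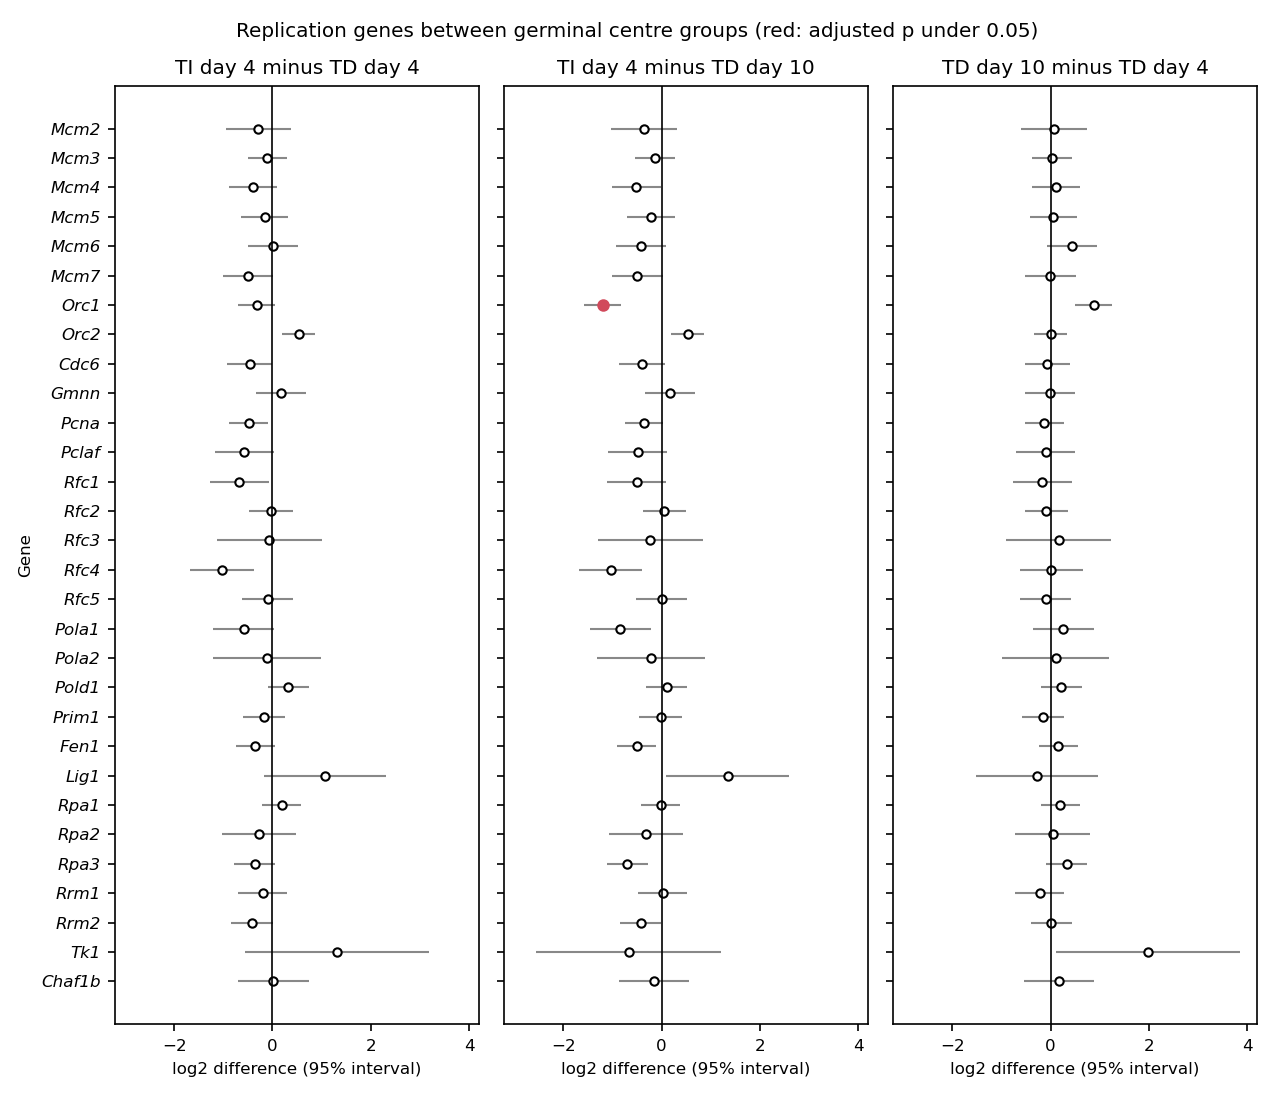
Log2 difference between germinal centre groups for the tested replication genes, with 95% intervals and red points for adjusted p under 0.05. Orc1 at -1.20 in TI day 4 minus TD day 10 is the only red point, and most points of both TI comparisons lie left of 0.

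Of the other replication and S phase genes, 0 of the 42 were called between germinal centre groups in limma, with 6 at an unadjusted p under 0.05 in TI day 4 against TD day 4, 0 in TD day 10 against TD day 4 and 7 in TI day 4 against TD day 10. These are 14.3%, 0% and 16.7% of the 42, near or below the 14.4%, 5.14% and 17.2% of all probe sets. Dnmt1 was 1.07 ± 0.21 higher in TI day 4 than in TD day 4 (adjusted p = 0.075) and 1.17 ± 0.21 higher than in TD day 10 (adjusted p = 0.052). Cad, which begins pyrimidine synthesis, was 1.22 ± 0.34 higher in TI day 4 than in TD day 4 (adjusted p = 0.17), and Orc6 was -0.53 ± 0.17 (adjusted p = 0.24). Ccne1, the cyclin of S phase entry, was 0.93 ± 0.25 higher in TI day 4 than in TD day 10 (adjusted p = 0.13), and Rrm2b, the damage-inducible reductase subunit, 1.32 ± 0.43 higher (adjusted p = 0.19). Between the T-dependent groups the smallest p values were those of Rrm2b, Topbp1 and Pold3, at -1.03, -0.49 and 0.34, each with an adjusted p of 0.96.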

How the data were processed

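Biotin-labelled RNA was hybridised by Affymetrix's standard protocol, per the labels. The authors deposited whole-number intensities on a linear scale, 30.1% of them 0 or below, and how these were scaled is not given in the sources used here. Leaving out 66 control probe sets, values under the 50th percentile (81) were set to it and log2 was taken. The 7253 of 12488 probe sets above it on at least 2 arrays were tested. In the annotation 10855 probe sets have 1 gene, 396 have several and 1237 have none. A linear model of 4 groups on 8 arrays was fitted in limma 3.58.1 (R 4.3.3), two-sided, with empirical Bayes variances (4 residual and 2.20 prior degrees of freedom). P-values were adjusted by Benjamini-Hochberg across the tested probe sets, separately for each of 7 comparisons. "Called" means an adjusted p under 0.05, and each ± is a standard error on the log2 scale. No normalization was added. Precision is limited by having 2 arrays a group. The method was tested on simulated data.

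Members and lists were chosen with earlier results of these data known. All 36 genes are accounted for. Of the other pathway genes, the 6 of smallest p against resting cells and the 3 of smallest p in each comparison between germinal centre groups are named. Bcl6 and Mki67 check the sort. Same-numbered arrays of different groups had deviations that correlated at -0.217 to 0.121, so numbers were not taken to pair arrays. No label names a batch. Alternatives were quantile normalization, a common median, floors at the 40th and 60th percentiles, no filter or a minimum of 4 arrays, a fit on the compared arrays alone, a replicate block, array weights, a trended and robust prior, the mean over a gene's probe sets and leaving out each array. A Gapdh 3′ to 5′ ratio covariate was chosen after seeing the data.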

Additional observations from a re-analysis of the deposited data

Results flagged for a closer look

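Orc1 was set apart by a difference between the T-independent and the unprimed T-dependent response, -1.20 on the log2 scale in TI day 4 minus TD day 10, which passed the test of the difference itself (adjusted p = 0.018, limma). Both TI day 4 arrays read 144 and the TD day 10 arrays 341 and 321. The call was lost when any single germinal centre array was left out, with only the arrays compared and with the Gapdh ratio as a covariate. Groups of 2 arrays are too small for a test of outlying arrays.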

How the results depend on the processing

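The count of replication genes above resting cells stayed within 19 to 21 for the germinal centre mean, 14 to 20 for TD day 4, 15 to 22 for TD day 10 and 13 to 19 for TI day 4 over the alternatives tried, with 0 lower in each. With the replicate block the counts were 21, 19, 20 and 18, Pola1 in TD day 10 (adjusted p = 0.079) and Rfc1 in TI day 4 (adjusted p = 0.057) losing their calls, and the 1 call of TI day 4 against TD day 10 was kept. That call, Orc1, fell to 0 called lower with only the arrays compared and with the Gapdh ratio as a covariate, and ranged from 0 to 1 when arrays were left out, the 1 without the second TI day 4 array being Tk1. With no filter 1 gene was called higher in TI day 4 than in TD day 4 and 1 than in TD day 10, in each case Orc2 (adjusted p = 0.022 and 0.014), and the first count ranged from 0 to 1 when arrays were left out. Genes with both arrays lower in TD day 10 than in TD day 4 numbered 1 with quantile normalization and 4 with a common median. With a common median, those higher in TI day 4 than in TD day 10 numbered 5, and those lower fell from 15 to 11. Over single genes and comparisons, 3998 alternative values kept their side of the threshold, 103 lost and 25 gained a call, and 0 changed direction with a call. The cause of these changes was not tested. With 2 arrays a group and many resting values under the floor, small differences and folds from dim resting values are not resolved.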
